A study of Mus musculus with 109 samples.

Results

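B53 is a viewpoint, or bait, of a 4C-seq series and lies in the middle of mouse chromosome 8 (mm9), in a stretch of 3.99 Mb with no protein-coding gene. Its members are the 12 columns, of 109 in the deposited table, whose titles name B53 at any time other than 1.5 h. The cells were C127, a mouse line from a mammary tumour, and no genotype or allele distinguished the groups. Cells titled mitosis were held for 4 h in nocodazole, which blocks the spindle. Cells titled 30 min and 1, 2, 3 and 4 h were collected 0.5 to 4 h after release from that block, and those titled G2 at 15 h. Cells titled G0 were starved of serum for 5 days. There were 2 columns each for 30 min, 1 h and G0, 2 technical replicates for 2 h and 1 column each for mitosis, 3 h, 4 h and G2. The technical replicates were summed, which left 11 libraries. The 4 libraries titled 30 min and 1 h are called the first hour, the 3 titled 2, 3 and 4 h are called 2 to 4 h, and G0 has 2 libraries, with mitosis and G2 as single ones. The series followed how chromatin contacts are arranged in early G1.

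In 4C-seq, chromatin is crosslinked, cut and ligated, and the fragments joined to a chosen bait are amplified from a primer in the bait and sequenced. Most contacts of a locus fall close to it on the same chromosome, and their number falls with distance. Gene deserts are usually rich in A and T, replicate late in S phase, and tend to lie in the inactive compartment, which in interphase meets other inactive regions more often than active ones. Chromosomes condense in mitosis, and their interphase contact pattern is lost and then formed again after division.

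The bait is shown for its place in the desert and because sites read on other chromosomes are later set beside its letters. Capitals mark the HindIII site at which the primer ends, on the plus strand at chr8:52961959-52961978.

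B53 primer: aaacatgtttggccAAGCTT

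In the stretch around that site, at chr8:52961879-52962038 on the plus strand, capitals mark the primer, the bases before it belong to the bait fragment and those after it to the next HindIII fragment.

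B53 bait site: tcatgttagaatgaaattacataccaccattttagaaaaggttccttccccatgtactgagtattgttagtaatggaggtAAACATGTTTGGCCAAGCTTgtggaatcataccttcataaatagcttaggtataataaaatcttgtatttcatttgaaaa

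The sequence is intergenic. The bait fragment ran from the HindIII site at 52956002 to that at 52961973 and measured 5971 bp. It held 6 DpnII sites, the second enzyme, the last of them 548 bases before the primer's HindIII site. The desert, from 50606450 to 54597079, had a GC content of 36.5%, against 42.4% on all of chromosome 8. HindIII sites were about as dense in it as elsewhere on the chromosome, 32.6 per 100 kb against 30.7. On the side of smaller coordinates the nearest protein-coding gene was 4930555F03Rik, 2.36 Mb away. Beyond it lay Odz3, which encodes a teneurin, at 3.20 Mb, and Dctd, the dCMP deaminase gene, at 3.72 Mb. On the side of larger coordinates the nearest was Aga, which encodes a lysosomal aspartylglucosaminidase, at 1.64 Mb. Neil3, a DNA glycosylase gene, followed at 1.71 Mb and Vegfc, which encodes a growth factor of lymphatic vessels, at 2.20 Mb.

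The measurement was the number of reads at each of 823352 HindIII sites. A site with 1 read or more is called captured. Near contacts are those from 20 kb to 2 Mb (653 sites on the smaller side and 646 on the larger), long-range contacts those beyond 2 Mb on chromosome 8 (38173 sites), and the rest lie on other chromosomes (783872 sites). The 12 columns held 468921 (4 h) to 8826711 reads (G0 replicate 1). Reads are products of amplification with no molecular identifiers, so a read number is not a number of ligations, and captured sites are given beside reads.

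The titled times are in doubt, so each library is called by its title only. The columns titled 1 h replicate 2 and 2 h technical replicate 1 shared 31581 captured sites on other chromosomes, 93.9% of the smaller set. Of the sites captured in G0 replicate 1, 50.7% were also captured in the former and 50.1% in the latter. The other 63 of 66 pairs shared 1.85% to 15.4% (median 6.48%), and the 2 technical replicates of 2 h shared 8.57%. Results that rest on these libraries are also given without them where the value changed. The table holds the columns in the order G0 replicate 2, G0 replicate 1, G2, mitosis, 1 h replicates 1 and 2, 2 h technical replicates 1 and 2, 30 min replicates 1 and 2, 3 h and 4 h. Longer bar codes, with 4 bases before the primer, were used for mitosis, 30 min replicate 2, 1 h replicate 2 and G0 replicate 1. Nothing in the labels ties a column to a separate culture beyond calling replicates biological or technical, so p-values measure the spread between these libraries.

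Near contacts took up 22.5% (1 h replicate 1) to 57.5% (4 h) of the chromosome 8 reads, and the titles did not order them in time. Of the chromosome 8 reads beyond 20 kb, 24.97% lay within 2 Mb in the library titled mitosis. At 30 min the share was 41.1% and 37.3%, and at 1 h it was 22.5% and 29.4%. The 30 min libraries thus lay above both 1 h libraries. The technical replicates of 2 h gave 28.7% and 37.7%. The shares at 3 h and 4 h, 43.97% and 57.5%, were the highest of the 12. G2 gave 22.9% and the G0 libraries 23.0% and 22.6%, close to the library titled 1 h replicate 1. Read in the order of the table, the near share ran 22.6, 23.0, 22.9, 24.97, 22.5, 29.4, 28.7, 37.7, 41.1, 37.3, 43.97 and 57.5%. In that order the first 5 columns had the lowest shares and the last 5 the highest. The last 2 columns also had the fewest reads, 803137 and 468921, and the part of depth in this was not tested.

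Captured near sites varied less than these shares. They numbered 650 (4 h) to 1051 (mitosis) of 1299, which is 50.0% to 80.9%. Reads within 20 kb, left out of all shares, made up 1.38% to 8.44% of a column. Counted in captured sites, near contacts were 4.30% to 29.7% of all captured on chromosome 8 beyond 20 kb.

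The share of all reads beyond 20 kb that stayed on chromosome 8 was 81.6% at mitosis, 74.8% and 31.5% at 30 min and 80.9% and 77.5% at 1 h. It was 77.3% and 73.0% for the technical replicates of 2 h, 59.8% at 3 h, 46.8% at 4 h, 51.3% in G2 and 84.6% and 91.4% in G0. G0 replicate 2 kept the most reads on the bait's own chromosome and the library titled 30 min replicate 2 the fewest. In table order the shares ran 91.4, 84.6, 51.3, 81.6, 80.9, 77.5, 77.3, 73.0, 74.8, 31.5, 59.8 and 46.8%.

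**Figure D1:**
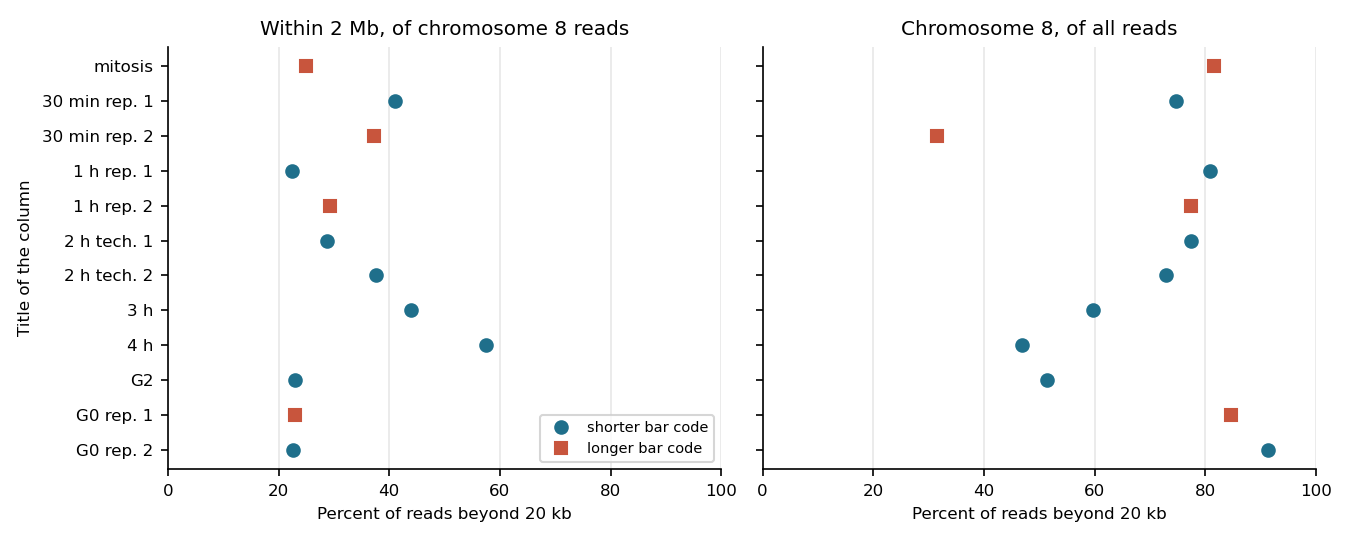
The left panel plots, for each of the 12 columns of B53 by title, the percent of chromosome 8 reads beyond 20 kb that lay within 2 Mb, and the right panel the percent of all reads beyond 20 kb that lay on chromosome 8; circles are columns with the shorter bar code and squares those with the longer. The columns titled 3 h and 4 h have the highest near shares, 43.97% and 57.5%, and the column titled 30 min replicate 2 has the lowest chromosome 8 share, 31.5%.

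Grouped by title, the near share was 32.6% ± 8.32 (SD, n = 4) in the first hour, 45.0% ± 12.1 (n = 3) at 2 to 4 h and 22.8% ± 0.315 (n = 2) in G0. The 2 to 4 h libraries were 12.4 percentage points above the first hour, with overlapping groups (exact two-sided permutation test, p = 0.229; the smallest possible p was 0.0571). G0 lay 22.1 points below 2 to 4 h without overlap, at the smallest p that 2 against 3 libraries allow (exact permutation test, p = 0.2). The chromosome 8 share was 66.2% ± 23.2 in the first hour, 60.5% ± 14.1 at 2 to 4 h and 88.0% ± 4.81 in G0. Its difference between 2 to 4 h and the first hour, -5.63 points, was smaller than the spread within either group (exact permutation test, p = 0.686), and without the 4 h library it was 1.23 points. G0 exceeded 2 to 4 h by 27.4 points (exact permutation test, p = 0.2, the smallest possible). None of these 4 comparisons could pass 0.05 at these numbers.

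With distance from B53 the captured share of sites stayed high to beyond 1 Mb and then fell apart between libraries. Between 20 and 100 kb, 61.9% to 81.0% of sites were captured (lowest to highest of 12 columns, median 71.4%). Between 1 and 2 Mb the range was 42.4% to 87.01% (median 75.4%). Between 5 and 10 Mb it was 7.67% to 79.0% (median 61.2%), and beyond 50 Mb it was 2.21% to 39.0% (median 18.5%). The columns titled 30 min replicate 2, 3 h and 4 h were the lowest 3 in each of the 4 bands from 2 to 50 Mb, and beyond 50 Mb G2 was lower than 3 h and 30 min replicate 2. These 3 libraries captured 4033, 2885 and 1538 long-range sites, against 6696 to 22931 in the other columns. In reads, the bands took a median of 7.16% of chromosome 8 reads (20 to 100 kb), 8.34% (1 to 2 Mb), 13.9% (5 to 10 Mb), 24.7% (20 to 50 Mb) and 4.22% (over 50 Mb).

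The fall of reads per site with distance, as a slope on log scales of both, lay between -0.59 (G2) and -0.90 (30 min replicate 1) from 20 kb to 2 Mb. From 2 to 50 Mb it lay between -0.51 (30 min replicate 2) and -1.02 (G2), and it was -0.94 and -0.91 in G0. G2 and G0 thus had the steepest slopes beyond 2 Mb, and G2 had the shallowest below it. The desert itself held 22.4% (1 h replicate 1) to 56.4% (4 h) of chromosome 8 reads. Of its 1302 sites 48.4% (4 h) to 80.4% (mitosis) were captured.

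**Figure D2:**
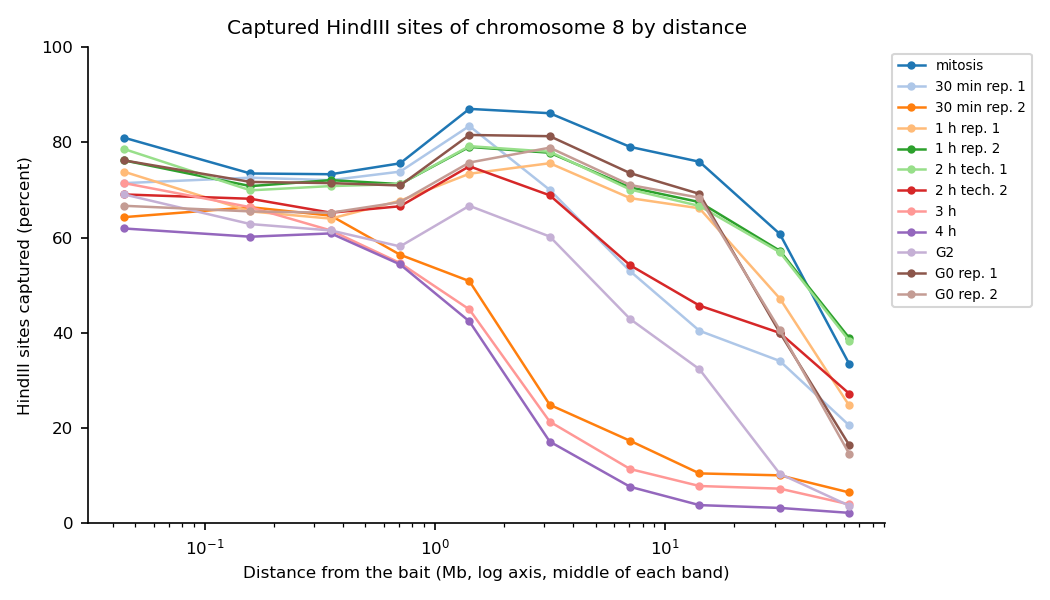
Percent of HindIII sites of chromosome 8 captured (y axis) in 10 bands of distance from the bait (x axis, log scale in Mb, both sides together) with a line for each of the 12 columns. The lines lie within 61.9% to 81.0% in the first band and spread to 7.67% to 79.0% between 5 and 10 Mb, with 30 min replicate 2, 3 h and 4 h lowest there.

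Beside the bait, in 100-kb bins, the pattern of captured sites was alike in most libraries. Observed over expected captured sites compares a bin with others at its distance and with its number of HindIII sites, and is given as log2. Over the 55 pairs of libraries the correlation across the 40 near bins was 0.106 to 0.977 (median 0.808). The bins share their HindIII sites between libraries, so this is a description. On the side of smaller coordinates the bin from 52041959 to 52141958 was the lowest, at -0.72 ± 0.17 (SD, n = 11), with 10 (4 h) to 19 of its 39 sites captured (median 43.6%). The bin from 51741959 to 51841958 was the highest there, at 0.24 ± 0.10, with 14 (3 h) to 26 of 27 sites captured (median 85.2%). On the larger side the lowest and the highest bin were neighbours. From 53281960 to 53381959, 10 to 13 of 27 sites were captured, at -0.58 ± 0.11, and from 53381960 to 53481959, 26 (4 h) to 32 of 36, at 0.28 ± 0.07. All 11 libraries lay below 0 in both low bins and above 0 in both high bins. None of these 4 bins held a protein-coding gene.

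How many sites of a bin could be read at all moved with these values. A site is called readable where it had a read in at least 1 of 95 columns of other baits, which leaves out a column titled with another bait that carried reads of B53. Of the near sites 80.8% were readable, 1049 of 1299. In the low bins 59.0% and 51.9% were readable, and in the high bins 92.6% and 91.7%. Across the 40 bins the correlation between the readable percent and the mean log2 observed over expected was 0.779, given as a description over bins that share the libraries.

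**Figure D3:**
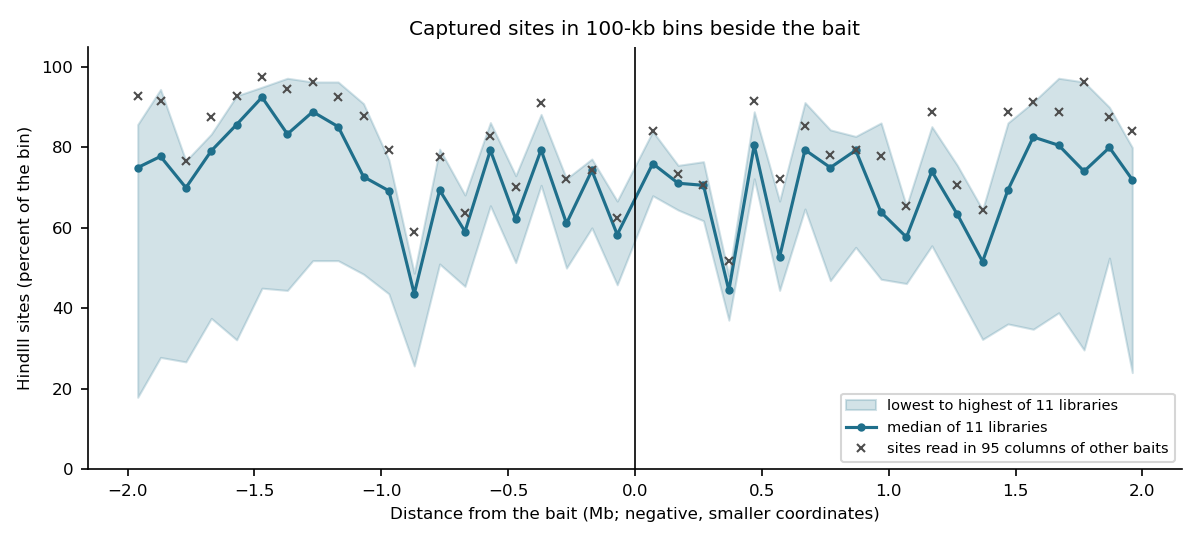
Percent of HindIII sites captured in each 100-kb bin (y axis) against distance from B53 (x axis, Mb, smaller coordinates negative); the line is the median and the band the lowest to highest of 11 libraries, and crosses are the percent of sites read in 95 columns of other baits. The medians dip to 43.6% and 44.4% in the bins that also have the lowest crosses, 59.0% and 51.9%.

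Neither side of the bait was captured more over the whole 2 Mb. The larger over the smaller side gave a mean log2 ratio of captured sites per HindIII site of -0.0033 ± 0.084 (SD, n = 11), above 0 in 3 of 11 libraries (exact sign-flip permutation test, p = 0.920). In reads the ratio was 0.12 (exact permutation p = 0.00195), and within 1 Mb, in captured sites, it was 0.11 (exact permutation p = 0.000977, the smallest possible). None of these ratios was taken over readable sites only, and all libraries share the same HindIII sites, so a small p does not separate contacts from readability. The larger side took 49.4% to 54.4% of near reads by column. The side with genes within 2 Mb, Aga and Neil3, is the larger one.

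Of 40 near bins, 3 changed between 2 to 4 h and the first hour, against 17.5% of the near bins of the 6 chromosome 8 baits. Reads per bin were tested with edgeR's quasi-likelihood test and Benjamini-Hochberg adjustment over the bins of these baits, and the spread came only from the duplicates of 30 min, 1 h and G0. Among those 3 bins, 1 had groups that did not overlap, the only such bin of the 40 (2.5%). The bin from 54481960 to 54581959, beside Aga, fell (log2 change -0.79, SE 0.23, edgeR adjusted p = 0.0288). It held 0.845, 0.768, 1.05 and 1.35% of near reads in the first hour and 0.979, 0.627 and 0.293% at 2 to 4 h, so the groups overlapped. The bin from 54281960 to 54381959 fell by 0.68 on the log2 scale (SE 0.22, edgeR adjusted p = 0.0471). It held 0.9280, 1.09, 1.06 and 1.05% of near reads in the first hour and 0.9272, 0.529 and 0.527% at 2 to 4 h. Its groups did not overlap, but 2 h lay only just below 30 min replicate 1. The bin from 52441959 to 52541958 rose by 0.44 (SE 0.14, edgeR adjusted p = 0.0471) with overlap. The count was 0 without the 4 h library and 1 without 1 h replicate 1, 1 h replicate 2 or 3 h, and it was 7, 13 and 5 without 30 min replicate 1, 30 min replicate 2 or 2 h.

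Between G0 and 2 to 4 h, 12 near bins passed, 10 higher in G0 and 2 lower, against 55% of the bins of the 6 baits. All 12 had groups without overlap, as did 21 of all 40 near bins (52.5%). With libraries scaled by read totals the split was 11 higher and 0 lower. The bin from 54481960 to 54581959 was higher in G0, at 1.49% and 1.15% of near reads (log2 change 1.10, SE 0.26, edgeR adjusted p = 0.00355). The bin from 54681960 to 54781959, which holds part of Neil3, had 1.12% and 0.793% in G0 and 0.593, 0.268 and 0.412% at 2 to 4 h (log2 change 1.11, SE 0.30, edgeR adjusted p = 0.00710). The outermost bins of the smaller side, from 50961959 and from 51041959, were higher in G0 by 1.01 and 0.95. The bin from 52441959, 0.47 Mb from the bait, was lower in G0 by a log2 change of -0.55 (SE 0.17, edgeR adjusted p = 0.0165). The higher bins named here lie 1.57 to 1.96 Mb from the bait. The count was 2 without either G0 library, 6 without 3 h and 1 without 4 h. When stages rather than titles set the spread, an alternative chosen after the data were seen, edgeR called 0 of 40 near bins in either comparison (3 and 8 at an unadjusted p under 0.05). DESeq2, run with titles as levels only, called 6 and 12.

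Long-range contacts of B53 covered the whole chromosome, from 4.03% (4 h) to 60.1% (mitosis) of the 38173 sites. Profiles of log2 observed over expected in 244 bins of 500 kb, with every library thinned to 1538 captured sites, correlated at 0.649 to 0.753 in the 3 pairs of one title. The other 52 pairs ran from -0.0323 (3 h with G0 replicate 1) to 0.749 (30 min replicate 2 with 3 h), with a median of 0.403. The profile of 1 h replicate 2 correlated at 0.746 with that of 2 h, which holds the column it shares sites with.

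The 5 highest bins by the mean of 11 libraries held 0 to 2 protein-coding genes and lay on both sides of the bait. They began at 91500001, which holds Sall1, a zinc finger transcription factor gene of kidney development (0.47 ± 0.38, SD, above 0 in 11 of 11 libraries), and at 31500001, with no protein-coding gene (0.38 ± 0.29, 11 of 11). The others began at 17000001 in Csmd1, which encodes a large membrane protein (0.43 ± 0.63, 8 of 11), at 101500001 with the cadherin gene Cdh8 (0.40 ± 0.58, 10 of 11), and at 115500001 with no gene (0.40 ± 0.62, 7 of 11). For the last 3 the spread over libraries was larger than the mean. Of the 5 lowest bins, all below 0 in 11 of 11 libraries, 4 had few readable sites. They began at 22000001 (-2.34 ± 0.75, 8% of sites readable), 19500001 (-1.76 ± 0.63, 29.3%), 57500001 (-1.24 ± 0.27, 27.3%) and 73500001 (-1.26 ± 0.56, 45.3%), the last with the myosin gene Myo9b. The other, at the chromosome's start from 3000001 with the insulin receptor gene Insr, was 73.1% readable and lay at -1.21 ± 0.27.

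The 86 bins with 5 or more protein-coding genes were captured less than the 33 bins with none, but in some libraries only. The log2 observed over expected of gene-free minus gene-rich bins was 0.95 and 0.84 at 30 min, 1.12 at 3 h and 0.67 at 4 h. It was 0.30 at 1 h replicate 2 and 0.23 at 2 h, and 0.09 and 0.04 at mitosis and 1 h replicate 1. It was -0.02 in G2 and -0.07 and -0.05 in G0. The libraries titled 30 min, 3 h and 4 h, which are the last 4 columns in table order, stood above the other 7. G2 and G0 were the only ones below 0, and with thinning to 687 sites G2 lay at 0.07. The mean was 0.37 ± 0.44 (SD, n = 11; 8 of 11 above 0; exact sign-flip permutation test, p = 0.0166). Without the libraries titled 30 min, 3 h and 4 h, an alternative chosen after these values were seen, it was 0.07 (exact permutation p = 0.266), and in 1-Mb bins it was 0.17 (exact permutation p = 0.0977). Of these 4 libraries 3 have the fewest long-range sites, and the part of that in the difference was not tested. All libraries were thinned to the same number of sites, and the mean without thinning was 0.38. With only readable sites the mean was 0.40. The median GC content was 38.1% in the gene-free bins and 45.1% in the gene-rich ones, and its part in the difference was not tested. By bin, 9 of 86 gene-rich bins had a mean above 0, against 15 of 33 gene-free bins and 51 of 125 bins with 1 to 4 genes.

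**Figure D4:**
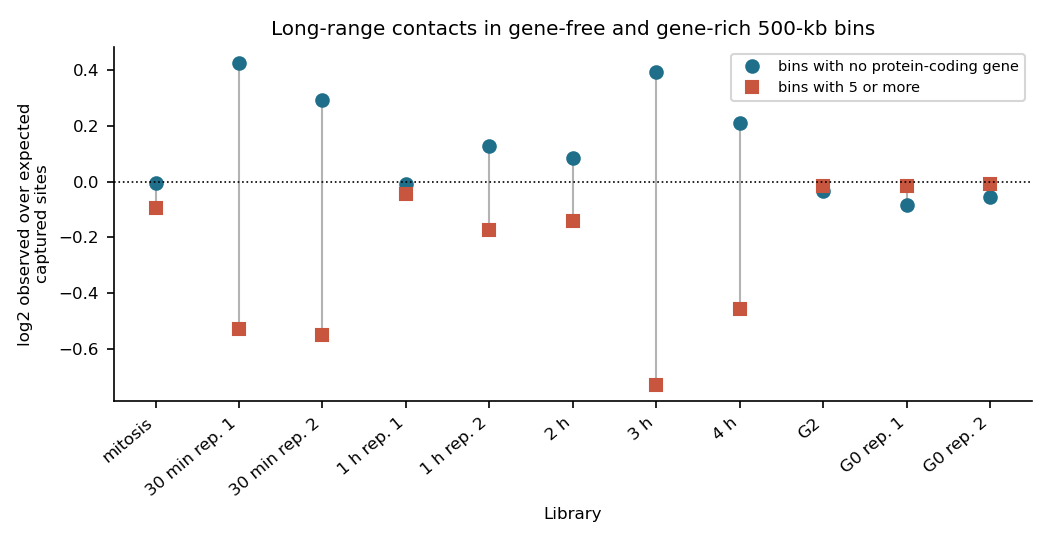
Mean log2 observed over expected captured sites (y axis) of long-range 500-kb bins with no protein-coding gene (circles) and with 5 or more (squares) for each of the 11 libraries of B53 (x axis), joined by a line per library. The gap is widest at 3 h (1.12) and 30 min (0.95 and 0.84) and is near 0 in mitosis, 1 h replicate 1, G2 and G0.

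Region by region, 54 of 246 long-range bins passed between 2 to 4 h and the first hour, 8 higher and 46 lower (edgeR, background 17.1% of the bins of the 6 baits). Of the 54, 3 had groups that did not overlap, and of all 246 bins 5 did (2.03%). The lowest p belonged to the bin from 46500001 to 47000000, 6.21 Mb from the bait, with Sorbs2, which encodes an adaptor of the actin cytoskeleton, and Pdlim3. It held 1.03% of long-range reads at mitosis, 0.366, 0.347, 1.01 and 0.996% in the first hour, 0.630% at 2 h, 0.0933% at 3 h, 0.00222% at 4 h, 1.13% in G2 and 1.41% and 1.37% in G0. Of its 151 sites 58, 17, 116 and 117 were captured in the first hour but 3 and 1 at 3 h and 4 h. The change of -3.53 (log2, SE 0.18, edgeR adjusted p = 4.55e-08) thus came with a 2 h library that lay within the range of the first hour and 2 that lay far below it. The bin from 33500001 (Gm5908) did the same, with 109 captured sites at 2 h and 3 and 1 at 3 h and 4 h (log2 change -3.17). In the bin from 86500001, with Cacna1a, a calcium channel gene, and Rfx1, 0 sites were captured at 3 h and 4 h and 65 at 2 h. Falls were also called from 32500001 with Nrg1, the neuregulin 1 gene (-3.03), and from 73000001 with the elongation factor gene Ell (-5.54).

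Of the 8 bins that rose, 1 held no protein-coding gene, 5 held 1 to 4 and 2 held 5 or more, and of the 46 that fell these numbers were 5, 15 and 26. All 246 bins divided into 34, 126 and 86. From 39000001 to 39500000, in Sgcz, which encodes a sarcoglycan, the share was 0.880, 0.792, 0.733 and 0.754% in the first hour and 0.892, 2.17 and 1.17% at 2 to 4 h, without overlap (log2 change 0.76, SE 0.13, edgeR adjusted p = 0.00129). The others named by the rule began at 92000001 (0.94), 62500001 with Aadat (0.69), 55000001 with Vegfc (0.61) and 64500001 with Anxa10 (0.50). The count of 54 was 91, 82, 30, 84, 25 and 31 without 30 min replicate 1, 30 min replicate 2, 1 h replicate 1, 2 h, 3 h or 4 h in that order. With stages setting the spread edgeR called 0 (7 at an unadjusted p under 0.05), and with captured sites in place of reads it called 4. DESeq2, with titles as levels, called 67.

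Between G0 and 2 to 4 h, 158 of 246 long-range bins passed, 92 higher in G0 and 66 lower, against a background of 52.7%. Groups did not overlap in 129 of them, and in 153 of all 246 bins (62.2%). Scaled by read totals, the split turned to 69 higher and 82 lower, so the balance between directions depends on the scaling. The bin with Sorbs2 was higher in G0 (log2 change 5.16, SE 0.19, edgeR adjusted p = 8.79e-10) and its neighbour from 47000001 with the sorting nexin gene Snx25 likewise (2.91), at 1.27% and 1.26% in G0 and 0.542, 0.0953 and 0.206% at 2 to 4 h. The bin from 64000001 with the actin-associated gene Palld was higher by 2.39, and those from 33500001 and 32500001 by 4.49 and 4.28. Of the 66 bins lower in G0, 19 held no protein-coding gene, 32 held 1 to 4 and 15 held 5 or more, and of the 92 higher in G0 these numbers were 7, 47 and 38. From 99500001 to 100000000, with no protein-coding gene, the share was 0.128% and 0.125% in G0 against 0.664, 1.10 and 0.824% at 2 to 4 h (log2 change -2.35, SE 0.32, edgeR adjusted p = 0.000106), and it was 0.900% and 1.01% at 30 min and 0.204% and 0.385% at 1 h. The bins from 9000001 with Fam155a (-3.09), 115500001 (-2.83), 4500001 with Shcbp1 (-2.76) and 92000001 (-2.10) were lower too. With stages setting the spread edgeR called 0 of 246 (102 at an unadjusted p under 0.05, smallest adjusted p 0.0637). In captured sites 98 passed, and DESeq2 called 159.

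Single long-range sites recurred too. Of the 7 most read among the 66 sites captured in every column, 5 lay 2.01 to 2.88 Mb from the bait on the larger side, on both flanks of Vegfc. The site at 54975616 had 259 (4 h) to 2056 reads (G2), and that at 55458217 had 100 (30 min replicate 2) to 2828 (1 h replicate 2). A site in Enpp6, which encodes a phosphodiesterase, at 48124350 on the smaller side, had 96 to 1799 reads. The most read of all, at 19710557 on the smaller side, had 247 to 1909 reads and was read in 68 of 96 columns not titled B53, against 24 to 38 for the other 6. It lies in a bin where most sites were not readable, which was among the lowest 5 named above.

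B53 was set against 3 other baits of chromosome 8 by pairs of libraries of the same title, with p adjusted over the 12 differences. B7, 45.7 Mb away, has 5 protein-coding genes within 2 Mb, B44, 8.54 Mb away, has 18, and B87, 34.5 Mb away, has 87, against 2 at B53. The baits also differ in position: B7 lies at 7223950, near the chromosome's start, and B53 in its middle. The part of position in the differences below was not tested. B53 kept fewer of its chromosome 8 reads near than B7, by 22.9 points ± 4.89 (SD, n = 11; lower in 11 of 11; exact permutation test, adjusted p = 0.00469). It kept 10.2 points ± 4.14 fewer than B87 (n = 10; lower in 10 of 10; exact permutation test, adjusted p = 0.00469). Against B44 the difference was 0.614 points ± 15.9 (higher in 5 of 11; exact permutation test, adjusted p = 0.891), and the mean near share was 32.6% at B53 and 32.0% at B44. The libraries titled 3 h and 4 h had the highest near shares at B7 (74.1% and 76.5%) and B87 (58.0% and 68.4%) as well. At B44 the highest were 4 h (74.8%) and 30 min replicate 2 (67.3%). In captured sites the difference from B87 was -0.824 points and did not pass. B53 kept more reads on chromosome 8 than B7, by 7.19 points ± 5.49 (9 of 11; exact permutation test, adjusted p = 0.00781). The differences from B44 (1.62 points) and B87 (9.31 points ± 14.2, 9 of 10) did not pass (exact permutation test, adjusted p = 0.308 and 0.0911). Against B87 it passed without G2, at 12.95 points.

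The long-range gap between gene-free and gene-rich bins was larger at B53 than at B87 by a log2 value of 1.55 ± 1.30 (10 of 10 titles; exact permutation test, adjusted p = 0.00469), since at B87 it ran the other way (-1.14 ± 0.89). It exceeded that of B44 by 0.37 ± 0.44 (8 of 11; exact permutation test, adjusted p = 0.0234). The difference from B7, the other bait with few genes around it, was 0.14 ± 0.26 and did not pass (7 of 11; exact permutation test, adjusted p = 0.108). At B7 too the gap was highest in the libraries titled 3 h (0.59) and 30 min (0.52 and 0.49). At 4 h it was 0.20 there, below 1 h replicate 2 (0.27). At B44 it stayed between -0.173 and 0.105 in all libraries.

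On other chromosomes 0.571% (4 h) to 4.43% (1 h replicate 2) of sites were captured by column, with 6.15% to 19.0% of captured sites holding 1 read. Relative to all other chromosomes, capture per HindIII site was highest on chromosomes 19 (1.45 ± 0.07, SD, n = 11), 17 (1.39 ± 0.08), 15 (1.37 ± 0.05) and 10 (1.30 ± 0.04). It was lowest on X (0.568 ± 0.037), 14 (0.602 ± 0.023), 12 (0.667 ± 0.020) and 18 (0.751 ± 0.041). All 11 libraries lay above 1 for the first 4 and below 1 for the last 4. The other baits gave like values, with 1.62, 1.54 and 1.57 on chromosome 19 and 0.541, 0.571 and 0.492 on X at B7, B44 and B87. Over readable sites only, chromosome 19 stood at 1.35 and X at 0.688, and chromosome 14 was then the lowest at 0.661. In 1-Mb windows the highest was on chromosome 11 from 3000001 to 4000000, at 3.62 ± 0.89 times the average (11 of 11), with Osbp2, Drg1 and Limk2. Windows on chromosome 10 from 114000001 (2.18, with Lgr5, the gene of a stem cell receptor, and Trhde) and from 80000001 (2.17, with Dot1l, a histone H3 methyltransferase gene) and on chromosome 17 from 84000001 (2.15, with Thada) and from 85000001 (2.11) followed. The middle 90% of 2452 windows lay between 0.448 and 1.55. The 3 lowest windows, on chromosome 5 from 94000001, 2 from 175000001 and 12 from 24000001, had no captured site, with 1.52%, 0.256% and 0.276% of their sites readable.

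Gene-free bins of other chromosomes were captured slightly less than gene-rich ones, by a mean log2 difference of -0.10 ± 0.09 (SD, n = 11; 2 of 11 above 0; exact sign-flip permutation test, p = 0.00586). The direction did not hold in reads (0.05, exact permutation p = 0.273) or over readable sites only (0.02, exact permutation p = 0.568), an alternative added after the data were seen. The difference was less negative at B53 than at B44 by 0.24 ± 0.08 (11 of 11; exact permutation test, adjusted p = 0.00469) and than at B87 by 0.82 ± 0.42 (10 of 10; exact permutation test, adjusted p = 0.00469). Against B7 it was 0.07 ± 0.11 (9 of 11; exact permutation test, adjusted p = 0.0454), which no longer passed without any one of 9 of the 11 titles (0.04 to 0.08).

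A few single sites on other chromosomes were read in every column. Of 783872 sites, 15 were captured in all 12 columns and 637246 in none. Beyond 2 Mb on chromosome 8, 8321 of 38173 sites were captured in none. The most read sites are shown to set their letters beside those of the primer, with capitals marking the part that equals the primer's 3′ end, each at the HindIII site named.

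Chromosome 13, 112415237 (+): ctatgtacttcatCAAGCTT

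Chromosome X, 102324466 (+): tctcttatctaagCAAGCTT

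Chromosome 13, 120245839 in Paip1 (+): cccagaaattgaagAAGCTT

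The first of these had 430 to 6255 reads by column, a median of 0.344% of reads on other chromosomes, and was read in 5 of 95 columns of other baits. The site on X had 332 to 6578 reads (median 0.251%) and was read in 1 of 95. The site in Paip1, a gene of translation initiation, had 476 to 5220 reads (median 0.297%) and was read in 27 of 95. None of the 3 matched the primer by more than 1 base beyond the HindIII site. Of the 15 sites 12 were read in fewer than 10 of 95 columns of other baits. The median of the 15 was 4 such columns, the same as for the 99959 sites captured in only 1 B53 column. Few reads in other columns therefore did not set the 15 apart. The most widely read was the site at 3056799 on chromosome 11 in Sfi1, read in 80 of 95, inside the highest window named above. Sites within 500 kb of it were captured at 5.13 times the average rate. Around the other 14 that rate was 0.594 to 1.52, while the middle 50% of 1-Mb windows lay between 0.794 and 1.21. Some of the 15 were neighbours, such as the sites at 112415237 and 112471437 on chromosome 13 (rates 1.47 and 1.48) and those at 104268646 and 104502983 on chromosome 6 (1.16 and 0.917). A column titled with a bait of chromosome 16 at 2 h, which carried reads of B53, also had reads at the first 3 sites, 524, 1754 and 465.

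Sites whose letters go on matching the primer beyond HindIII were captured more often. Of the sites on other chromosomes 3974 (0.508%) matched for 4 or more further bases. They were captured at 0.780% to 19.6% by library (median 7.47%), against a median of 1.99% at sites with no further match. The ratio was 1.42 (4 h) to 9.61 (30 min replicate 1), with a median of 2.75. As a mean log2 ratio it was 1.76 ± 0.96 (SD, n = 11; 11 of 11 above 0; exact sign-flip permutation test, p = 0.000977, the smallest possible). By length of match the median captured share was 4.60% for 4 bases, 9.91% for 5, 15.2% for 6 and 30.6% for 7 or more (98 sites). At B7, B44 and B87 the same sites had median ratios of 1.08, 1.21 and 1.22. In reads the sites with 4 or more bases held 0.305% to 0.760% of reads on other chromosomes, close to their share of sites, and the mean log2 ratio was 0.10 (exact permutation p = 0.413). Examples are shown with the matching bases in capitals, HindIII included.

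Chromosome 4, 139263863 (-): ggtaATGTTTGGCCAAGCTT

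Chromosome 4, 26632591 (-): gccatTGTTTGGCCAAGCTT

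Chromosome 6, 90441144 in Aldh1l1 (-): gactcTGTTTGGCCAAGCTT

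Chromosome 11, 41459228 (-): ggaggaGTTTGGCCAAGCTT

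These sites matched for 10, 9, 9 and 8 bases beyond HindIII and were captured in 7, 9, 8 and 10 of the 12 columns, with 0 to 128 reads in any column. A match is a description of the letters and does not show how a read arose. Without sites that matched for 3 or more bases, an alternative added after the data were seen, the gene-free minus gene-rich difference on other chromosomes was -0.09.

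**Figure D5:**
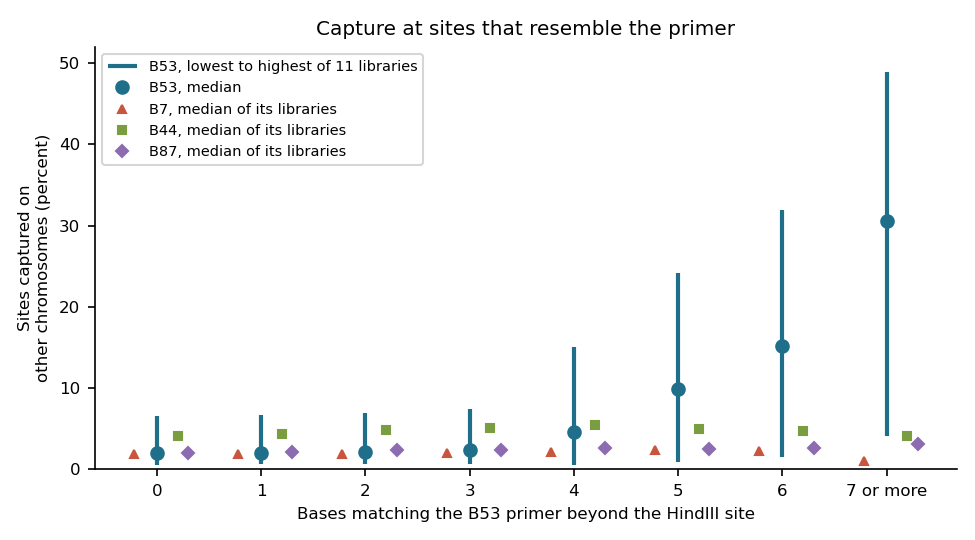
Percent of HindIII sites on other chromosomes that were captured (y axis) by the number of bases that match the B53 primer beyond the HindIII site (x axis). For B53 the dot is the median and the bar the lowest to highest of 11 libraries, rising from 1.99% with no match to 30.6% with 7 or more; triangles, squares and diamonds are the medians at B7, B44 and B87, which stay between 1.02% and 5.40%.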

How the data were processed

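The authors deposited raw read counts per HindIII site. BWA 0.5.9 and the build mm9 are named in the labels, per the submitters' processing notes. Which reads were filtered out is not given in the sources used here. No correction was made to the deposited counts. Positions were those of HindIII sites of the supplied mm9 sequence, and genes came from GENCODE vM1. Coordinates are 1-based. Columns were taken by title and the 2 technical replicates of 2 h were summed. Shares used reads beyond 20 kb of the bait. Reads in 500-kb bins (long-range) and 100-kb bins (near) were tested with edgeR 4.0.16 (TMM, filterByExpr, glmQLFit robust, glmQLFTest; R 4.3.3) with titles as levels, at an adjusted p of 0.05 over the bins of 6 baits. DESeq2 1.42.0 was an alternative. Observed over expected used a lowess on log distance (span 0.5, pseudocount 0.5), with libraries thinned to 1538 captured sites beyond 2 Mb (687 for comparisons of baits) and 10 draws. Permutation tests were exact and two-sided. Python 3.11.15 with numpy 2.4.6, pandas 2.3.3, statsmodels 0.14.6 and matplotlib 3.10.9 was used, and the scripts were tested on simulated data.

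Named regions were, on each side, the highest and lowest near bin, the 5 highest and 5 lowest long-range bins, the highest and lowest windows and most read single sites of other chromosomes, and up to 5 bins past the threshold per comparison and direction. The members and lists were chosen with earlier results of these data known. Alternatives were other bin and window sizes, scaling by read totals, no filter, captured sites or reads, a replicate block, each technical replicate alone, and each library left out. Added after the data were seen were stages as levels, primer-like sites left out, readable sites only, and fits without libraries titled 30 min, 3 h and 4 h. Libraries of the shorter bar code were also tested alone, with stages as levels. Depth ran from 468921 to 8826711 reads per column. The column with the fewest reads, 4 h, captured 6672 sites, and the column with the most, G0 replicate 1, captured 32635. With 3470068 reads, 2 h technical replicate 1 captured 56217. The part of depth in the number of captured sites was not tested.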

Additional observations from a re-analysis of the deposited data

Results flagged for a closer look

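Within the first hour the library titled 30 min replicate 2 stood apart from the other 3 in the share of reads on chromosome 8, at 31.5% against 74.8%, 80.9% and 77.5%. Its gap to the nearest library was 0.877 of the group's range, above Dixon's critical value for 4 libraries. Chance flags about 1 group in 20 by this measure, and none of the other measures looked at in this way was past its critical value. The library of the same title also had the lowest chromosome 8 share at B7 (36.4%), B44 (39.5%) and B87 (27.9%), so the low share was not particular to B53. It had 2425567 reads, 15846 captured sites on other chromosomes and 4033 beyond 2 Mb on chromosome 8.

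A column titled with another bait, on chromosome 16 at 2 h (replicate 2), carried reads of B53. Of its 2813671 reads 5.42% lay within 100 kb of B53, against at most 0.101% (median 0.00865%) in the other 96 columns outside the 12 of B53. Of its chromosome 8 reads beyond 20 kb 25.1% lay within 2 Mb, and 73.7% of all reads beyond 20 kb lay on chromosome 8. It captured 990 near, 20164 long-range and 27304 other-chromosome sites, and shared 5.36% to 7.74% of sites on other chromosomes with single B53 columns. The column titled B53 at 1.5 h, with 244438 reads, had 0.00123% of them near B53 and 7.65% near a bait of chromosome 16. Neither column was among the libraries analysed above. The column titled with a chromosome 16 bait at 2 h was used above only for its reads at single sites and in counts over columns not titled B53.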

How the results depend on the processing

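Of 365 alternatives, 282 were counted as the same. For tests this meant the same direction and side of the threshold, and for counts a value within 1.5 times. For the 4 share differences it meant the same direction and a change below the pooled SD, which was 9.85 to 20.1 points. In the order long-range 2 to 4 h against first hour, near, long-range G0 against 2 to 4 h, near, counts of called bins (54, 3, 158 and 12) were 0 each with stages as levels or the shorter bar code only, 4, 0, 98 and 0 in captured sites, and 25 to 91, 0 to 13, 111 to 158 and 1 to 16 with 1 library left out. Bins of double size gave 25 and 86 long-range calls, from fewer bins. Near calls for 2 to 4 h were 6 by DESeq2, 0 and 5 with either technical replicate alone, and 1 without the 2 columns that share sites. With the replicate number as a block the counts were 61, 4, 161 and 10 and the share differences 13.2, -21.9, -17.3 and 24.0 points. Over 244 bins the deviations of same-numbered libraries correlated at 0.131 (30 min with 1 h), -0.00397 (30 min with G0) and -0.0810 (1 h with G0). These values gave no sign of pairing by number, but cannot show whether same-numbered libraries shared a culture. In captured sites the near share of G0 minus 2 to 4 h was -12.2 points. The chromosome 8 share of 2 to 4 h minus first hour ran from -17.2 to 1.23 with 1 library left out. The side ratio was 0.12 in reads, 0.11 within 1 Mb, 0.050 within 5 Mb, 0.025 without the 4 libraries in doubt (1 h replicate 2, 2 h, both G0) and -0.025 to 0.0051 with 1 left out. The long-range gene difference was 0.17 in 1-Mb bins and 0.074 without the 30 min, 3 h and 4 h libraries. The other-chromosome one was 0.052 in reads, 0.017 over readable sites and -0.10 without the 4 libraries (exact permutation p = 0.0625). The primer match ratio was 0.10 in reads. Between baits, leaving out those 4 titles left too few pairs for most adjusted p-values to pass. The B7 differences were then -23.3 (near), 6.03 (chromosome 8) and 0.072 (other-chromosome genes), those from B44 -5.42 (near), 0.52 (long-range genes) and 0.23 (other-chromosome genes), and those from B87 -10.8, 2.11 and 0.95. Without pairing by title, 7.19 and 0.071 (B7) and -11.0 (B87, near) did not pass. In captured sites the near differences were -0.977 (B44) and -0.824 (B87), and the chromosome 8 differences passed at 19.8 (B44) and 7.95 (B87). With 1 title left out, the B7 other-chromosome difference was 0.044 to 0.082, the B44 near difference -1.19 to 3.67 and the B87 chromosome 8 difference 6.95 to 12.95. The causes were not tested. The 1538 and 2885 long-range sites at 4 h and 3 h limit all that concerns 2 to 4 h.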
